A study of Homo sapiens with 4 samples.

Results

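Mitochondrial ribosomal protein (MRP) genes were examined in ovarian cancer stem cells (OCSCs) exposed to LY500307, an agonist of estrogen receptor beta (ERβ). The members were chosen by symbol, as the counted genes named MRPL or MRPS followed by a digit, a rule that uses no measured value. The rule took 78 of the 23228 genes counted, 49 named for the large and 29 for the small ribosomal subunit. The cells came from SKOV3, an established line from a human ovarian tumour. Its cells with high aldehyde dehydrogenase activity (ALDH+) were sorted with the ALDEFLUOR assay and cultured as spheroids. SKOV3 ALDH+ OCSCs given vehicle (2 samples) were compared with the same cells given LY500307 at 5 µM for 24 h (2 samples). Both groups are thus 1 sorted fraction of 1 cell line. The sources used here do not say whether replicates were separate cultures, so p-values measure only the spread between these samples, which may be technical.

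Mitochondria keep their own ribosome, which translates the few respiratory chain subunits encoded by mitochondrial DNA. Its RNAs come from the mitochondrial genome, whereas all of its proteins are encoded in the nucleus, made in the cytosol and imported. One set of these proteins has relatives in bacterial ribosomes, and a further set is found in mitochondria but not in bacteria. The small subunit reads the messenger RNA, and the large subunit joins the amino acids and holds the exit tunnel at the inner membrane.

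Reads counted on genes ranged from 28841701 to 34943882 per sample. The LY500307 samples were less alike than the vehicle samples, with a chi-square of 44.9 against 5.27 for each degree of freedom when gene counts were compared within a group. Reads on no gene took 25.5% of uniquely aligned reads in LY500307 replicate 2 and 28.4% to 30.8% in the other samples. Results are therefore given for each LY500307 replicate apart. Of 8 markers of the labelled cells, EPCAM had 6213 to 8327 reads per sample, ERBB2 1452 to 2060, KRT18 668 to 1030 and ALDH1A1 134 to 185, whereas KRT8 had 9 to 33, ALDH1A3 8 to 16, MUC16 1 to 6 and PAX8 was at 0 in all 4 samples. Blood and vascular markers (PTPRC, CD3E, CD14, PECAM1, VWF, CDH5, HBB) had 0 to 52 reads per sample, and the stromal genes DCN and LUM had 263 to 283 and 491 to 544.

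Of the 78 members, 76 are protein-coding and 2, MRPL42P5 and MRPL45P2, are named as pseudogenes. Levels are given as CPM, that is, reads scaled to library size by edgeR's TMM method. All members but 1 passed edgeR's filter on low counts. The exception was MRPS24, a conserved small subunit protein, with 1, 0, 1 and 1 reads. Its exons overlap those of a read-through gene on the same strand, URGCP-MRPS24, which was at 0 in all 4 samples, and whether reads there were set aside as ambiguous was not tested. MRPL42P5 had 25 to 48 reads and MRPL45P2 57 to 102, and neither is counted among the 75 protein-coding members described from here on. Exons of 20 of these overlap a counted gene on the other strand, and the strand setting of the counting is not given in the sources used here.

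Summed over 47 genes, large subunit transcripts came to 2649 and 2659 CPM in the vehicle samples and to 2803 and 2856 CPM in the LY500307 samples. Both LY500307 samples thus lay above both vehicle samples, with group means of 2654 ± 6.88 and 2830 ± 37.7 CPM (SD, n = 2 each), a difference of 6.61%. Summed over 29 genes taken by symbol, small subunit transcripts came to 1872 and 1913 CPM with vehicle and 1876 and 1880 CPM with LY500307. Here the groups overlapped. The ratio of the large to the small subunit sum does not depend on how samples are scaled to each other. It was 1.42 and 1.39 in the vehicle samples and 1.49 and 1.52 in the LY500307 samples, without overlap. The sums weigh genes by their level, and MRPS34 and MRPS5 were among the small subunit genes of highest CPM with vehicle. MRPS34 had 164 and 168 CPM with vehicle and 170.3 and 112 CPM with LY500307. For MRPS5 these values were 147 and 158 CPM, then 143 and 96.4 CPM. How far the ratio in LY500307 replicate 2 rests on these genes was not tested. For 2 against 2 samples the smallest two-sided p of an exact permutation is 0.333, so no test was run on these sums.

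Gene by gene the differences were small. The fitted log2 fold change of LY500307 over vehicle was above 0 for 37 of 47 large subunit genes and for 16 of 28 small subunit genes, beside 50.0% of all genes tested. The median log2 fold change was 0.11 for large and 0.05 for small subunit genes, beside 0.00 for all 14473 genes tested. Taken against the vehicle mean, the median over large subunit genes came to 0.09 in the first LY500307 replicate and 0.10 in the second, and that over small subunit genes to 0.01 and 0.09. The medians of the subunits thus lay apart in replicate 1 and close together in replicate 2.

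Grouping by structure changed little. MRPS30 and MRPS18A carry small subunit names but sit in the large subunit, and MRPS36 is now known as a part of the alpha-ketoglutarate dehydrogenase complex. With these moved or left out, the median log2 fold change was 0.11 for 49 large subunit genes and 0.04 for 25 small subunit genes. The large subunit sum was then 2743 and 2754 CPM with vehicle and 2900 and 2949 CPM with LY500307. The small subunit sum was 1763 and 1802 CPM with vehicle and 1764 and 1763 CPM with LY500307, again with overlap. Proteins with bacterial relatives had a median of 0.09 in the large subunit (30 genes) and 0.13 in the small subunit (15 genes). Mitochondria-specific proteins had a median of 0.14 in the large subunit (19 genes) and -0.01 in the small subunit (10 genes). MRPS18A and MRPS18B were placed in these mitochondria-specific classes although they are relatives of a bacterial protein. These class differences were not tested.

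**Figure D1:**
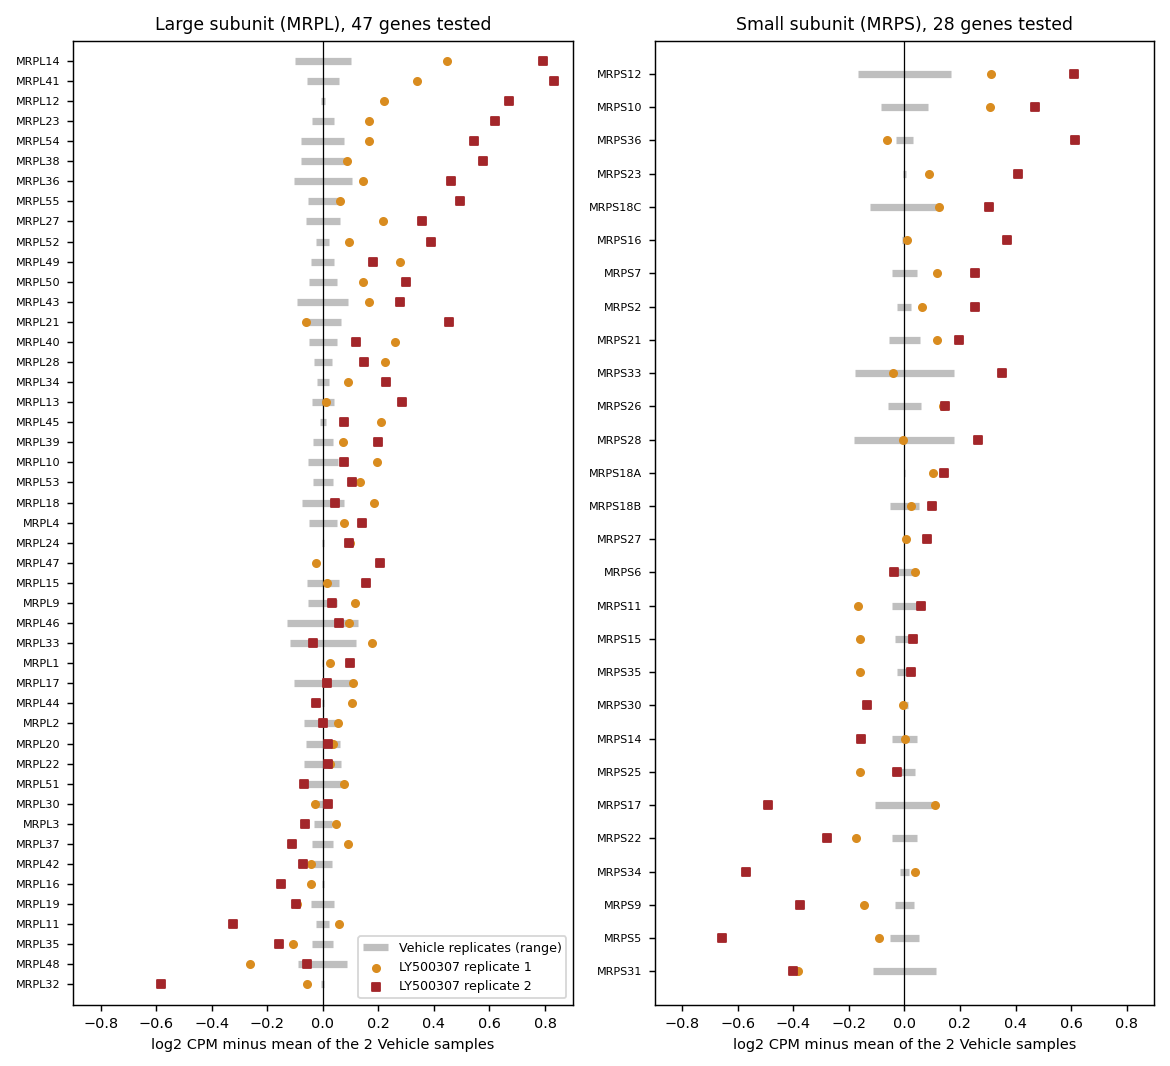
Difference in log2 CPM (prior count 2) between each LY500307 sample and the mean of the 2 vehicle samples, for the large subunit genes (47) and small subunit genes (28) tested, where circles are LY500307 replicate 1, squares replicate 2 and grey bars the range of the vehicle samples. Replicate 2 spreads further from 0 than replicate 1, with an SD across the 75 members of 0.31 against 0.14.

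Without adjustment for multiple testing, edgeR's quasi-likelihood test gave a p below 0.05 for 8 members that were higher with LY500307 (beside 6.09% of all genes tested) and for 1 that was lower (beside 5.5%). The 8 made up 10.7% of the 75 members. The study's criteria add an absolute log2 fold change above 0.5, and the study took p from DESeq2. With p from edgeR instead, 2 of 75 members were higher, near the share of all genes (2.76%). At these criteria 0 members were lower (beside 1.86%). Benjamini-Hochberg adjustment over all genes left 0 members and 0.0% of all genes below 0.05 in edgeR, with 0.422 as the lowest adjusted p. That count of members differed in fits that left out 1 LY500307 sample. There the lone LY500307 sample is assumed to vary like the vehicle samples, so those counts are not read as results. DESeq2 left 16 genes and 0 members below an adjusted p of 0.05, with 0.0803 as the lowest adjusted p of a member. Without adjustment it called 6 members higher (beside 4.23% of the 18407 genes it tested) and 1 lower (beside 3.46%). That set had no filter on low counts, unlike the 14473 genes of edgeR, so its shares are not comparable with those of edgeR. The calls described next are therefore unadjusted ones. Both LY500307 samples lay above both vehicle samples for 33 members (44%, beside 24.2% of all genes) and below them for 9 (12%, beside 24.4%). By subunit, 23 large and 10 small subunit genes were among the 33.

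The 8 members that were higher comprised 6 large and 2 small subunit genes. MRPL14, a conserved large subunit protein, is encoded at 44081188 to 44095189 of chromosome 6 (minus strand) in GRCh37. It had 33.1 and 28.8 CPM with vehicle and 42.1 and 53.4 CPM with LY500307. The fitted log2 fold change was 0.63 with a standard error of 0.15. MRPL41, a mitochondria-specific large subunit protein that has also been linked to apoptosis, is encoded at 140446331 to 140447007 of chromosome 9 (plus strand). It had 35.4 and 32.6 CPM with vehicle and 42.9 and 60.6 CPM with LY500307. Here the log2 fold change was 0.61 with a standard error of 0.17. In both genes the groups did not overlap and LY500307 replicate 2 was the highest sample. These were the 2 members that met the study's criteria, and both lay under the 0.5 limit without LY500307 replicate 2, at 0.45 and 0.34.

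MRPL12, a conserved protein of the stalk to which translation factors bind, is encoded at 79670397 to 79674547 of chromosome 17 (plus strand). It had 71.2 and 70.5 CPM with vehicle and 82.5 and 113 CPM with LY500307, with a log2 fold change of 0.46 (standard error 0.15). MRPS12, a conserved protein near the decoding centre of the small subunit, is encoded at 39421584 to 39423808 of chromosome 19 (plus strand). It had 30.3 and 38.1 CPM with vehicle and 42.2 and 51.8 CPM with LY500307, with a log2 fold change of 0.46 (standard error 0.16). The vehicle samples of MRPL12 were nearly equal, whereas those of MRPS12 differed by 0.33 on the log2 scale and its LY500307 samples by 0.30. The conserved small subunit gene MRPS10 had 13.98 and 15.8 CPM with vehicle and 18.4 and 20.6 CPM with LY500307, with a log2 fold change of 0.39 (standard error 0.15).

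The remaining 3 encode large subunit proteins. MRPL23, whose bacterial relative lies at the end of the exit tunnel, had 28.0 and 26.5 CPM with vehicle and 30.6 and 41.95 CPM with LY500307 (log2 fold change 0.41, standard error 0.17). MRPL27, whose bacterial relative reaches towards the peptidyl transferase centre, had 36.4 and 33.4 CPM with vehicle and 40.6 and 44.7 CPM with LY500307 (log2 fold change 0.29, standard error 0.12). The mitochondria-specific MRPL49 had 93.5 and 99.0 CPM with vehicle and 117 and 109 CPM with LY500307 (log2 fold change 0.23, standard error 0.10). MRPL49 was the only one of the 8 in which LY500307 replicate 1 was the highest sample, and its exons overlap those of SYVN1 on the other strand. Some of these calls were lost in fits that left out 1 library. Leaving out a vehicle sample leaves the spread to the LY500307 pair, so a lost call there does not show that this library decided it. The same limit holds for the calls below that were lost without a vehicle sample. Without vehicle replicate 1 the called members of the 8 were MRPL14 and MRPL41, without vehicle replicate 2 these and MRPS12, and without LY500307 replicate 2 all but MRPL23 and MRPL27. MRPL27 and MRPL49 were not called by DESeq2 either.

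MRPS31, a mitochondria-specific small subunit protein, was the 1 member lower at an unadjusted p below 0.05. It is encoded at 41303264 to 41345326 of chromosome 13 (minus strand) and had 24.2 and 28.2 CPM with vehicle and 20.0 and 19.8 CPM with LY500307. The log2 fold change was -0.40 with a standard error of 0.14. The LY500307 samples were nearly equal and lay below both vehicle samples. The call was lost without vehicle replicate 2 and with a correction for GC content (log2 fold change -0.29) (adjusted p with all 4 samples in edgeR, 0.422). MRPS31 has pseudogene copies of high similarity, so its level is uncertain where reads could not be placed uniquely.

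The 4 members next in p among those with lower values did not pass the test. MRPS9, a conserved small subunit protein, had 85.8 and 89.9 CPM with vehicle and 79.4 and 67.7 CPM with LY500307 (log2 fold change -0.26, standard error 0.11). The mitochondria-specific MRPS22 had 60.5 and 64.5 CPM with vehicle and 55.4 and 51.5 CPM with LY500307 (log2 fold change -0.23, standard error 0.11). In these genes both LY500307 samples lay below vehicle. MRPS5, a conserved small subunit protein, had 147 and 158 CPM with vehicle and 143 and 96.4 CPM with LY500307 (log2 fold change -0.35, standard error 0.17). MRPL32, a conserved large subunit protein that is cut to its mature form after import, had 76.5 and 77.1 CPM with vehicle and 73.8 and 51.3 CPM with LY500307 (log2 fold change -0.30, standard error 0.16). In MRPS5 and MRPL32, LY500307 replicate 1 was close to vehicle and replicate 2 was far below it.

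**Figure D2:**
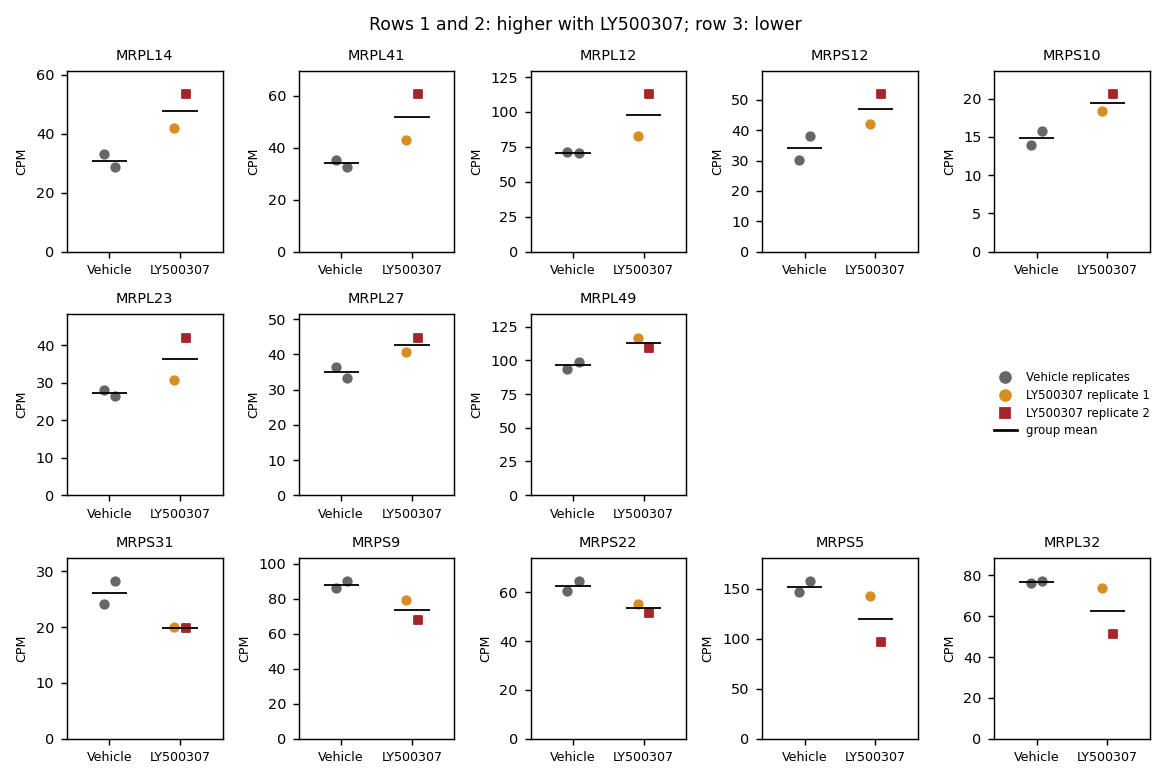
CPM in each of the 4 samples (vertical axis) for the 8 members of smallest p among those higher with LY500307 and the 5 among those lower (bottom row), where grey circles are vehicle, orange circles LY500307 replicate 1, red squares replicate 2 and lines group means. The groups do not overlap in any of the 13 genes, which were picked by p from these same samples. Among all genes tested, 24.2% were higher and 24.4% lower without overlap. For MRPS5 and MRPL32 the distance rests mainly on LY500307 replicate 2.

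The LY500307 replicates disagreed for a part of the members. Of 75 members, 20 lay on opposite sides of the vehicle mean in the replicates (26.7%, beside 31.5% of all genes tested). The replicates differed by more than 0.5 on the log2 scale for 6 members (8%, beside 16.7% of all genes), and the vehicle samples did so for 0 members (beside 10.6%). The 6 were singled out after their values were seen, and MRPS5 and MRPL32 were among them. MRPS34, a mitochondria-specific protein of the small subunit, had 164 and 168 CPM with vehicle and 170.3 and 112 CPM with LY500307. MRPS17, a conserved small subunit protein, had 29.7 and 34.5 CPM with vehicle and 34.5 and 22.7 CPM with LY500307. In both, replicate 1 was at or near the top of the vehicle level and replicate 2 was the lowest sample. MRPS36 had 15.2 and 15.9 CPM with vehicle and 14.9 and 23.9 CPM with LY500307. The conserved large subunit gene MRPL21 had 38.1 and 34.8 CPM with vehicle and 34.9 and 49.9 CPM with LY500307. In these last genes replicate 2 was the highest sample and replicate 1 was within or just below the vehicle values. Exons of MRPS34 overlap EME2 on the other strand and those of MRPS17 overlap GBAS on the same strand.

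Members whose name and place differ did not pass the test. MRPS30 had 62.0 and 62.9 CPM with vehicle and 62.2 and 56.9 CPM with LY500307 (log2 fold change -0.07, standard error 0.11). MRPS18A had 32.1 and 32.1 CPM with vehicle and 34.5 and 35.5 CPM with LY500307 (log2 fold change 0.12, standard error 0.12). MRPS18A, MRPS18B and MRPS18C are relatives of a single bacterial protein. MRPS18B had 47.1 and 50.6 CPM with vehicle and 49.7 and 52.3 CPM with LY500307 (log2 fold change 0.06, standard error 0.11). MRPS18C had 9.94 and 8.37 CPM with vehicle and 9.94 and 11.3 CPM with LY500307 (log2 fold change 0.21, standard error 0.18). The groups did not overlap in MRPS18A and overlapped in MRPS30, MRPS18B and MRPS18C.

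Levels were compared between members only per length, as CPM per kilobase of the canonical transcript (RPKM), averaged over the 4 samples. The median was 41.2 RPKM over 75 members, 41.5 for large and 39.1 for small subunit genes. The percentiles 10 and 90 were 13.7 and 79.7 RPKM, a 5.80-fold span. MRPS34 was highest at 154 RPKM (112 to 171 over samples), followed by the mitochondria-specific large subunit gene MRPL51 at 119.6 RPKM (114 to 126 over samples) and the conserved small subunit gene MRPS6 at 91.2 RPKM (88.8 to 93.5 over samples). MRPS34 stood above MRPL51 except in LY500307 replicate 2, where it was at its lowest. The place of MRPS6 rests on the mean over samples, since the ranges of MRPL33 (89.0 RPKM (79.7 to 97.9 over samples)) and MRPS15 (88.1 RPKM (80.5 to 92.3 over samples)) overlapped that of MRPS6. In LY500307 replicate 2, MRPL12 and MRPL41 also stood above MRPS6. The lowest means belonged to the small subunit genes MRPS33 at 3.46 RPKM (2.87 to 4.14 over samples), MRPS18C at 6.38 RPKM (5.40 to 7.29 over samples) and MRPS10 at 8.18 RPKM (6.66 to 9.80 over samples). The range of MRPS10 overlapped those of MRPS18C, MRPL42 (8.38 RPKM (8.13 to 8.74 over samples)) and MRPS11 (8.78 RPKM (7.94 to 9.31 over samples)). It also overlapped that of MRPS23 (8.50 RPKM (7.72 to 10.3 over samples)). In both LY500307 samples MRPS10 stood above MRPL42. These levels depend on the transcript taken as canonical, and with the length of all exons of a gene in its place 2 of the highest 3 and 2 of the lowest 3 remained.

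**Figure D3:**
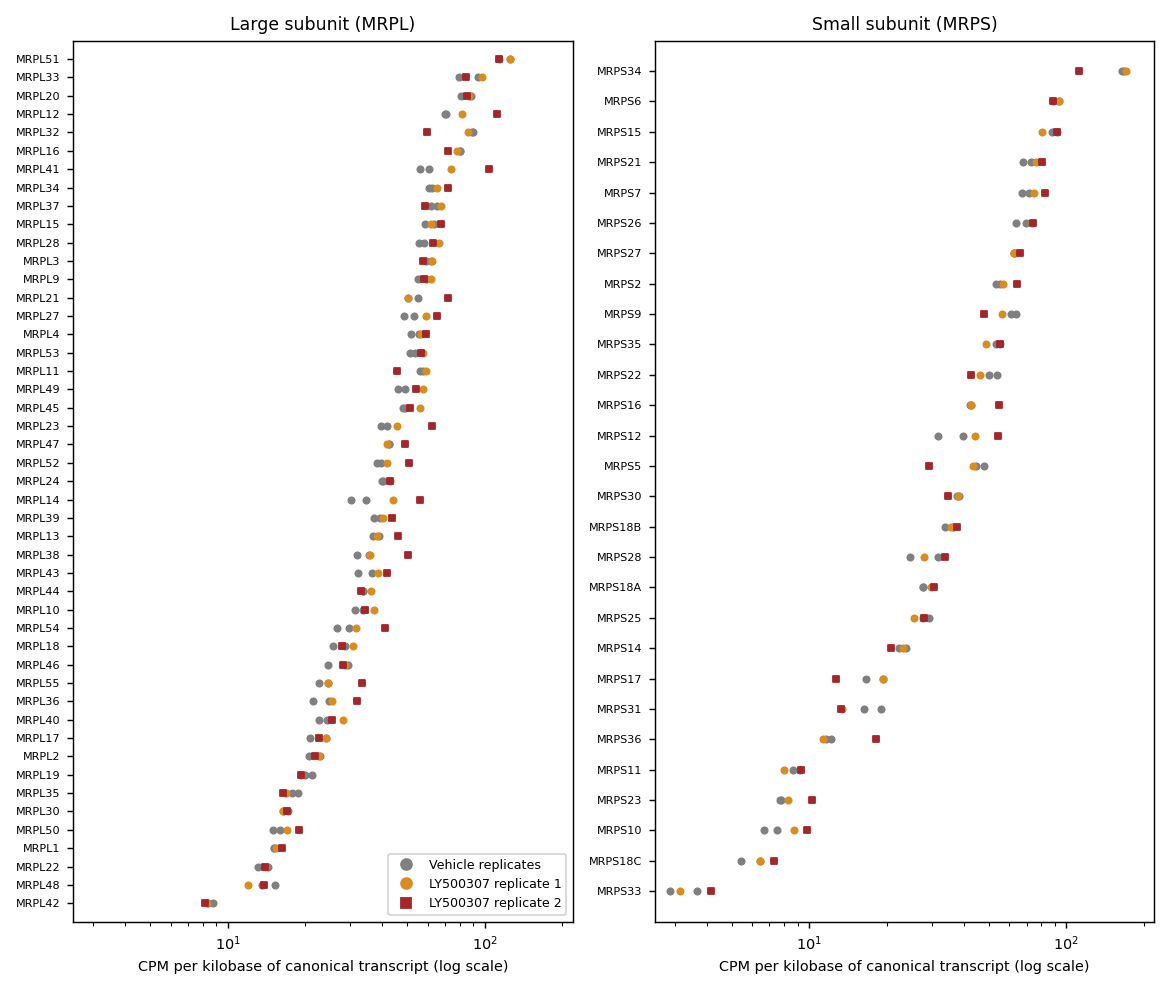
CPM per kilobase of canonical transcript (log scale) of each tested large and small subunit gene in each sample (grey circles vehicle, orange circles LY500307 replicate 1, red squares replicate 2), ordered by the mean of the 4 samples. Means run from 3.46 to 154 RPKM, a span far wider than that between samples of any one member.

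MRP transcripts are short, and the difference between groups varied with length and base composition. The canonical transcripts had a median of 1260 bases, beside 3347 for all genes tested, and 67 of 75 members were shorter than that. Large subunit transcripts were shorter than small subunit ones (medians of 1175 and 1472 bases) and had a higher exonic GC content (49.4% and 43.9%). Across 75 members, Spearman's rho of the log2 fold change was -0.35 with transcript length and 0.44 with exonic GC content. Across 13625 genes it was -0.23 and 0.34, and all of these points share the same 4 libraries. The 25 members highest in GC content (52.4% to 66.7%) had a median log2 fold change of 0.19, with 22 above 0 and 6 of the 8 called members. The 25 lowest (35.0% to 42.4%) had a median of 0.00, with 13 above 0. MRPL41 had the highest GC content of the members named here, at 66.7%.

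With a correction for exonic length in each sample, the median log2 fold change was 0.02 for large and 0.00 for small subunit genes. This correction used the length of all exons of a gene, not that of the canonical transcript. By that measure the subunits were alike, with medians of 2549 bases for large and 2536 bases for small subunit genes. The members then called higher by edgeR were 4 (MRPL12, MRPL14, MRPL41 and MRPS12). With a correction for GC content the medians were 0.12 and 0.04, and the log2 fold change was 0.54 for MRPL14 and 0.43 for MRPL41. MRPL23, MRPL49 and MRPS31 lost their calls under that correction, and MRPL12, MRPL14, MRPL27, MRPL41, MRPS10 and MRPS12 kept theirs. The part of length and GC content in the difference between the subunits was not tested further.

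**Figure D4:**
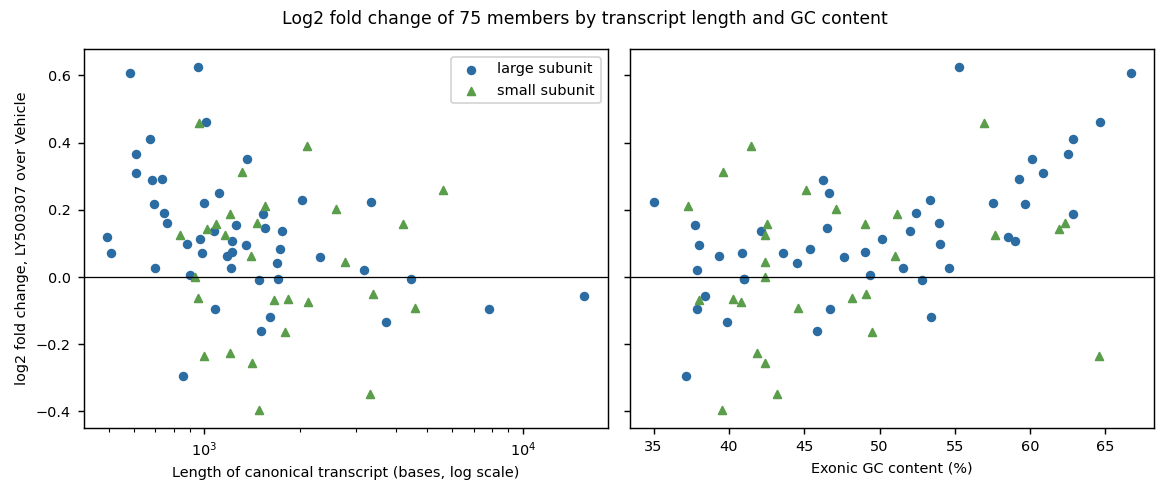
Fitted log2 fold change (LY500307 over vehicle) of 75 members against canonical transcript length (bases, log scale) and exonic GC content (percent), with circles for large and triangles for small subunit genes. Values are higher towards short transcripts (Spearman's rho -0.35) and towards high GC content (0.44).

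Many MRP genes start beside another gene that is read in the opposite direction. In the GRCh37 annotation, 25 of 75 members (33.3%) had such a protein-coding neighbour within 1000 bases, beside 12.5% of 13227 protein-coding genes tested. MRPL46 and MRPS11, a gene of each subunit, start 320 bases apart. MRPL46 had 24.3 and 29.0 CPM with vehicle and 28.3 and 27.6 CPM with LY500307. MRPS11 had 31.3 and 29.3 CPM with vehicle and 26.9 and 31.6 CPM with LY500307. The groups overlapped in both genes, with log2 fold changes of 0.07 and -0.05. Counting each member of that pair from its own side, 10 of 23 members with a tested partner had a partner whose log2 fold change had the same sign.

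Of the called members, 4 had such a neighbour, whose log2 fold change is given beside that of the member. TMEM63B, 102 bases from MRPL14, had 0.07 (standard error 0.11) beside 0.63 for MRPL14. EME1, which encodes a DNA repair nuclease subunit and starts 45 bases from MRPL27, had -0.20 (standard error 0.16) beside 0.29. SARS2, the mitochondrial seryl-tRNA synthetase gene 181 bases from MRPS12, had 0.16 (standard error 0.12) beside 0.46. FAU, which encodes a cytosolic ribosomal protein and starts 187 bases from MRPL49, had the larger value of its pair, 0.49 (standard error 0.13) beside 0.23. The difference within these pairs was not tested.

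**Figure D5:**
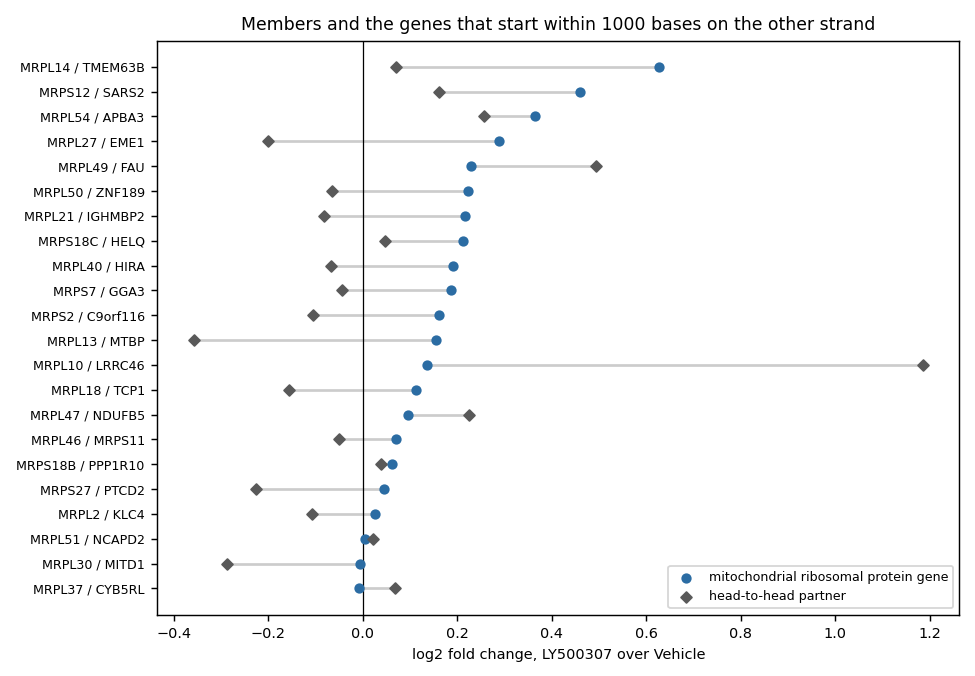
Fitted log2 fold change (LY500307 over vehicle, horizontal axis) of members (circles) and of the tested protein-coding gene that starts within 1000 bases on the other strand (diamonds), a pair on each line, with MRPL46 and MRPS11 drawn once. Partners lie on either side of 0, with FAU at 0.49 and EME1 at -0.20 among those beside called members.

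Promoter windows from RefSeq (GRCh38.p14, 250 bases before to 50 bases after the start) were found for 67 of 76 protein-coding members and searched on both strands for words of factors known to act on nuclear genes of mitochondrial proteins. The ETS word CCGGAAG was present in 29 of 67 members (43.3%), beside 12.2% of 27305 genes with a window and 20.7% of the 9818 of these that were tested. The YY1 word AAGATGGCG was present in 13 (19.4%), beside 2.14% and 4.57%, and can overlap the end of the ETS word. The consensus word of NRF1 was present in 8 (11.9%), beside 6.98% and 12.6%. The consensus estrogen response element was found in 0 members, beside 0.0733% of all genes with a window, which says only that these letters are not in the windows. The ETS word was held by 42.5% of large and 44.4% of small subunit genes. Members with the ETS word had a median log2 fold change of 0.14 and those without it 0.06. The same medians were 0.15 and 0.07 for the NRF1 word and 0.10 and 0.09 for the YY1 word, and none of these differences was tested. A match is a description of letters and not a measured binding site.

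The 120 bases before the start are shown for 4 members without a head-to-head neighbour, MRPL41 and MRPS10 from those called higher, the called lower MRPS31, and MRPS9, which was next to it in p. They let the words be seen beside genes of either direction. Capitals mark the ETS word (MRPS10 and MRPS31) or the NRF1 word read from the other strand (MRPS9). MRPL41 lies at chr9:137551759-137551878 (plus strand), MRPS10 at chr6:42217862-42217981 (minus strand), MRPS31 at chr13:40771191-40771310 (minus strand) and MRPS9 at chr2:105037949-105038068 (plus strand), all on GRCh38.p14 and written 5′ to 3′ along the gene.
MRPL41: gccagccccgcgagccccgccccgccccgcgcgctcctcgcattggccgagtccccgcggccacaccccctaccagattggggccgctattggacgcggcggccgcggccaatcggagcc
MRPS10: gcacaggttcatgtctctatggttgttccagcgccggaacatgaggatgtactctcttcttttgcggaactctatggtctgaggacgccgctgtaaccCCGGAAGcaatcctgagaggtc
MRPS31: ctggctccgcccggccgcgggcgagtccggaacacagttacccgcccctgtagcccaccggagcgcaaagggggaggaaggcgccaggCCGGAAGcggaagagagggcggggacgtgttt
MRPS9: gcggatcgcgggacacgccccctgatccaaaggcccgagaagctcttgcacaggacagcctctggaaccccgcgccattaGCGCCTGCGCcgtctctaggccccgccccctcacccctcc
The ETS word begins 22 bases before the start of MRPS10, which was called higher, and 32 bases before that of MRPS31, which was called lower. MRPL41, with the second largest log2 fold change of the members, holds none of these words in the 120 bases shown.

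Further proteins of the mitochondrial ribosome are counted under other symbols, and 7 such genes were tested, of which 2 were higher at an unadjusted p below 0.05 (beside 6.09% of all genes tested) and 0 were lower (beside 5.5%). AURKAIP1, a mitochondria-specific small subunit protein, had 61.9 and 66.6 CPM with vehicle and 76.2 and 90.3 CPM with LY500307 (log2 fold change 0.37, standard error 0.12). MRP63, a large subunit protein now named MRPL57, had 50.5 and 53.3 CPM with vehicle and 60.0 and 67.6 CPM with LY500307 (log2 fold change 0.30, standard error 0.11). In both genes the groups did not overlap. Both calls were lost with the length correction and when either vehicle replicate was left out, and that of AURKAIP1 also with the GC correction, at a log2 fold change of 0.20. The log2 fold change was 0.09 for DAP3, -0.10 for PTCD3 and -0.08 for ICT1. CHCHD1 had 31.9 and 29.0 CPM with vehicle and 30.4 and 44.7 CPM with LY500307, and GADD45GIP1 had 98.6 and 117 CPM with vehicle and 117 and 75.8 CPM with LY500307. In these last genes LY500307 replicate 2 stood apart, above the others in CHCHD1 and below them in GADD45GIP1.

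Genes that serve the ribosome held a few unadjusted calls, to be read beside the same 6.09% higher and 5.5% lower of all genes tested. Of 28 genes for assembly and ribosomal RNA modification, 2 were higher (7.14%, near the share of all genes) and 0 were lower. DDX28, a helicase of large subunit assembly, had 18.8 and 19.2 CPM with vehicle and 24.4 and 29.5 CPM with LY500307 (log2 fold change 0.50, standard error 0.14). MPV17L2, an inner membrane protein, had 15.3 and 15.9 CPM with vehicle and 19.6 and 19.4 CPM with LY500307 (log2 fold change 0.32, standard error 0.14). Its call was lost in DESeq2, with either correction and when either vehicle replicate was left out. Of 15 translation factor genes, 2 were higher and 1 was lower (6.67%, near the share of all genes). MTFMT, which formylates the initiator methionyl-tRNA, had 11.2 and 12.1 CPM with vehicle and 16.6 and 17.3 CPM with LY500307 (log2 fold change 0.54, standard error 0.15). PDF, a peptide deformylase that removes the formyl group, had 2.87 and 2.29 CPM with vehicle and 3.57 and 6.497 CPM with LY500307 (log2 fold change 0.96, standard error 0.33). The gene of the initiation factor MTIF2 had 67.1 and 71.0 CPM with vehicle and 60.6 and 49.5 CPM with LY500307 (log2 fold change -0.33, standard error 0.13). The groups did not overlap in any of these genes, which were picked by p from the same samples. Without LY500307 replicate 2 the log2 fold change of PDF was 0.47 and the call was lost. DDX28 and MTFMT lost theirs without vehicle replicate 1, and MTIF2 when either vehicle replicate was left out.

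Of 17 mitochondrial aminoacyl-tRNA synthetase genes, 2 were higher (beside 6.09% of all genes tested) and 0 were lower (beside 5.5%). MARS2, for methionine, had 18.8 and 18.7 CPM with vehicle and 21.8 and 28.3 CPM with LY500307 (log2 fold change 0.42, standard error 0.16). YARS2, for tyrosine, had 41.3 and 41.7 CPM with vehicle and 45.8 and 62.8 CPM with LY500307 (log2 fold change 0.39, standard error 0.16). Without LY500307 replicate 2 the log2 fold change was 0.22 for MARS2 and 0.15 for YARS2, and both calls were lost, as they were when either vehicle replicate was left out. YARS2 was also not called with the GC or the length correction. Of 19 genes for mitochondrial DNA upkeep and transcription, 0 passed the unadjusted limit in either direction, beside the same shares. Of 9 tested regulators of mitochondrial biogenesis, 0 were higher and 1 was lower (beside 5.5% of all genes), the coactivator gene PPARGC1B, which had 41.1 and 38.0 CPM with vehicle and 32.1 and 30.1 CPM with LY500307 (log2 fold change -0.35, standard error 0.12). That call was lost when either vehicle replicate was left out. With edgeR, 0 genes of these lists had an adjusted p below 0.05, where 1678 of all genes had an unadjusted p below 0.05.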

How the data were processed

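RNA-seq of 4 samples was used. Reads had been aligned by the authors to hg19 using TopHat2 (2.0.8b per the labels) and deposited raw HTSeq counts for each gene symbol, without normalization. The HTSeq version and strand setting are not given in the sources used here. The study describes stranded mRNA libraries, whereas the labels name a total RNA kit. HTSeq's tally lines were left out of the tests. The counts went into edgeR 4.0.16 under R 4.3.3 (TMM scaling, filterByExpr, quasi-likelihood test, Benjamini-Hochberg adjustment). Standard errors are the absolute log2 fold change divided by the square root of the F statistic. DESeq2, which the study used, served as an alternative (version 1.42.0). Gene counts totalled 28841701 to 34943882 per sample.

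The symbol rule for members uses no measured value, but it, the gene lists and the tests were chosen with earlier results of these data known. The rule named the 8 higher and 5 lower members of smallest p, those meeting the study's criteria, the 3 highest and 3 lowest per length, members whose name is an exception, mitoribosome genes under other symbols, and up to 2 genes of smallest p in each direction from each other list. Neighbours of members and MRPS17, MRPL21, MRPL33, MRPL42, MRPL46, MRPS11, MRPS15 and MRPS23 fall outside it and were chosen after their values were seen. Positions, lengths and GC content came from GENCODE v44 lifted to GRCh37, the assembly of hg19, where 91.8% of symbols matched. Corrections for length (all exons of a gene) and GC content used a loess fit (span 0.3) in each sample, given to edgeR as offsets. The tests were first tried on simulated data.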

Additional observations from a re-analysis of the deposited data

How the results depend on the processing

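With 2 samples per group the spread is estimated across genes, and LY500307 replicate 2 lay further from vehicle than replicate 1. At the study's limits on p and log2 fold change, 669 genes were called by edgeR and 566 by DESeq2, the method the study used. With 1 sample left out it ranged from 352 to 1987, where a lone sample is assumed to vary like the other group. In these fits the MRP genes higher at p below 0.05 ranged from 2 to 28, those lower from 0 to 8, and those past both limits from 0 to 8 (higher) and from 0 to 3 (lower). The large subunit median ranged from 0.091 to 0.155. The highest counts of called members came without LY500307 replicate 1. In that fit the calls at p below 0.05 also rose among all genes, in both directions. The member counts of these fits are therefore not read as results for the MRP genes.

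With the length correction, 4 MRP genes were higher, 2 lower and 0 past both limits, and the large subunit median was 0.024. The share of all genes called with the length correction is not given here. With the GC correction, 0 were lower (beside 4.61% of all genes) and 1 was higher past both limits (beside 301 of 14473 genes). The large subunit median was then 0.118. With library totals alone, 4 were higher past both limits (beside 484 of 14473 genes) and that median was 0.147. At p below 0.05 that fit called 9 members higher (beside 7.39% of all genes) and 1 lower (beside 4.10%). The main fit called 6.09% and 5.5% of all genes. All genes with at least 1 count gave 2 lower members (beside 5.32% of all genes). Replicate numbers did not pair the samples (correlation of deviations -0.07 across 14473 genes). The replicate block gave 7 higher members (beside 5.69% of all genes), 3 lower ones (MRPL32, MRPS31 and MRPS5, beside 5.52%) and 717 called genes. It lost the calls of MRPL27, MRPL49, MRP63 and MPV17L2. With the GC correction added, 1 member was past both limits, and the share of all genes in that fit is not given here. The causes were not tested.

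Signs turned under some settings. With the GC correction, MRPL51 had -0.022 and MRPS30 0.071, and with the replicate block added -0.022 and 0.071. With the length correction, MRPL51 had -0.12, MRPS6 -0.0070 and MRPS18B -0.046. With a sample left out, ranges were -0.065 to 0.077 for MRPL51, -0.036 to 0.039 for MRPS6, -0.57 to 0.039 for MRPS34, -0.062 to 0.62 for MRPS36, -0.050 to 0.35 for MRPS33, -0.74 to 0.022 for MRPL45P2, -0.0025 to 0.55 for CHCHD1, -0.51 to 0.12 for GADD45GIP1 and -0.23 to 0.070 for ICT1. With all samples MRPL45P2 had -0.41, MRPS36 0.31, CHCHD1 0.30 and MRPS34 -0.24, so these turned from values away from 0.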
